A study of Homo sapiens with 18 samples.

Results

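Readthrough in K562 cells was compared between 18 h and 1 h of imatinib, both at 1 µM. Imatinib inhibits the Bcr-Abl1 kinase, and K562 is an established line from a patient with chronic myeloid leukemia in blast crisis. The libraries were picked by treatment and time alone, 3 replicates after 18 h (IM 18h) and 3 after 1 h (IM 1h), and make up 6 of the 18 libraries of the series. RNA still attached to chromatin had been sequenced as PacBio long reads, in which the 3′ end of a read gives the position of RNA polymerase II. A read that overlapped the last exon of a gene and ended more than 100 nt past it was taken as a readthrough read. Neither group is untreated, so the 3 libraries of their untreated control cells (CTRLim) are given as values beside both times. The comparison asks which classes of genes carry more, and which fewer, readthrough reads per library read late in the treatment than early in it.

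Bcr-Abl1 drives proliferation through STAT5, through RAS and ERK, and through PI3K and AKT, and when AKT is less active FOXO transcription factors enter the nucleus. K562 cells keep traits of erythroid and megakaryocytic precursors, and they are known to make more hemoglobin when the kinase is blocked. Polymerase II passes the polyadenylation signal before the RNA is cut and is then released from the template, and readthrough is transcription that goes on beyond that region.

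The IM 1h libraries held 673042, 573238 and 802732 library reads, of which 29428, 25232 and 35199 were readthrough reads. The IM 18h libraries held 939959, 1277422 and 1349556 library reads, with 34547, 47742 and 49827 readthrough reads. Levels of single genes are given as readthrough reads per 1000000 library reads (RPM), and SE is the standard error of a log2 fold change. Counts per gene in the IM 1h libraries differed from each other by no more than counting noise, with a chi-square per degree of freedom of 0.979, 1.046 and 1.055 in the 3 pairs, while the IM 18h pairs gave 1.661, 1.647 and 1.270. Over all genes, the spread beyond counting noise therefore comes mostly from the IM 18h libraries. Single genes can differ, such as VIM, with a standard deviation of 10.7 RPM at 1 h and 1.70 RPM at 18 h. The CTRLim pairs gave 1.316, 1.422 and 1.030, and CTRLim replicate 1 has the highest share of readthrough reads of its group, so CTRLim is shown library by library.

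Marker genes of K562 cells were read first. Of 7 such genes of the erythroid and megakaryocytic lineages, 6 are in the table, and their summed level was 704, 693 and 679 RPM in the IM 1h libraries and 1250, 1166 and 1237 RPM in the IM 18h libraries. All 6 libraries thus carry the markers that the label implies. Of 15 markers of lymphoid and monocytic cells, 8 are in the table, and CD3G, CD79A and ITGAM had no read at either time. The 8 markers together had 22 reads at 1 h and 33 at 18 h, of which PTPRC, a phosphatase of all nucleated blood cells, had 16 and 32.

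Readthrough reads made up 4.37%, 4.40% and 4.38% of the library reads at 1 h and 3.68%, 3.74% and 3.69% at 18 h. All IM 18h libraries lay below all IM 1h libraries, a difference of -0.685 points (p = 0.1 in a two-sided permutation test over all groupings, the lowest value possible with 3 libraries per group). The difference was smaller against all mapped reads, at -0.400 points, and larger without the 10 genes with the most readthrough reads, at -0.767 points. Between 14.9% and 15.4% of the reads of IM 1h libraries had been removed as splicing intermediates, and between 9.11% and 11.3% of those of IM 18h libraries. With these reads kept in the total the difference was -0.399 points, and their part in the lower share was not tested further. CTRLim libraries had shares of 4.44%, 3.79% and 3.85%.

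The smaller share did not come from an equal decrease everywhere. Of the 13051 transcripts, 1720 had at least 30 readthrough reads over the 6 libraries and were tested, and 315 of them changed at an adjusted p under 0.05, which is 18.3% (edgeR quasi-likelihood test, Benjamini-Hochberg adjustment). In the lower direction, 243 genes changed, 14.1% of those tested, and their summed level was 9234, 9668 and 9252 RPM at 1 h and 4211, 4730 and 4476 RPM at 18 h. In the higher direction, 72 genes changed, 4.19% of those tested, with a sum of 2044, 1853 and 1840 RPM at 1 h and 4649, 4043 and 4175 RPM at 18 h. The 1405 genes tested without a call went from a mean of 19186 to 17161 RPM, and the 11331 transcripts with fewer reads from 13380 to 11094 RPM.

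Readthrough reads per library read mix how much a gene is transcribed with how often polymerase II passes its end, and these cannot be told apart in these counts. What counts as higher also depends on the total. Trimmed-mean (TMM) factors computed on the readthrough reads themselves moved the median log2 fold change of all genes by 0.291, from -0.30 to -0.01, and the split of calls from 72 higher and 243 lower to 111 higher and 92 lower. All 72 genes called higher and 92 of the 243 called lower were called in the same direction under both. With the number of readthrough reads as the total, the split was 103 higher and 113 lower, and with DESeq2 and its own size factors it was 42 higher and 21 lower. A gene named below as risen or fallen passed the test with the library totals, and where a family's median is given, the median under TMM factors is set beside it. Lists also differ in level, and more of the genes with many reads were called. Without ribosomal protein and histone genes, 5.49% of genes under 10 RPM and 32.7% of those over 50 RPM fell. The share of a list beside that of all genes is therefore a description only. The minimum of reads over the libraries compared also lets in genes that are high at a single time. Counts and medians of lists that fell can thus be in part set by that minimum, as can those of lists that rose.

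Leaving out single IM 1h libraries moved the number of calls more than leaving out IM 18h libraries. Without IM 1h replicate 2 it was 187, 49 higher and 138 lower, and without IM 1h replicate 3 it was 177, 49 higher and 128 lower. With the 3 IM 1h libraries summed into 1, a setting chosen after the data were seen, 155 genes changed, 44 higher and 111 lower, and each of them was also called in the same direction with the libraries kept apart. In 599 genes, 34.8% of those tested, no IM 18h library lay within the range of the IM 1h libraries, 146 of them higher (8.49%) and 453 lower (26.3%). The higher ones numbered 230 and the lower ones 286 when readthrough reads served as the total. Of the 99 genes that the naming rule picked, 85 were called, and 31 of these, 16 higher and 15 lower, were called under each of the 17 alternatives that tested them. Genes with fewer than 100 reads were not tested with a minimum of 100, and where a call is said to be lost, the number counts alternatives in which the gene was tested.

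**Figure D1:**
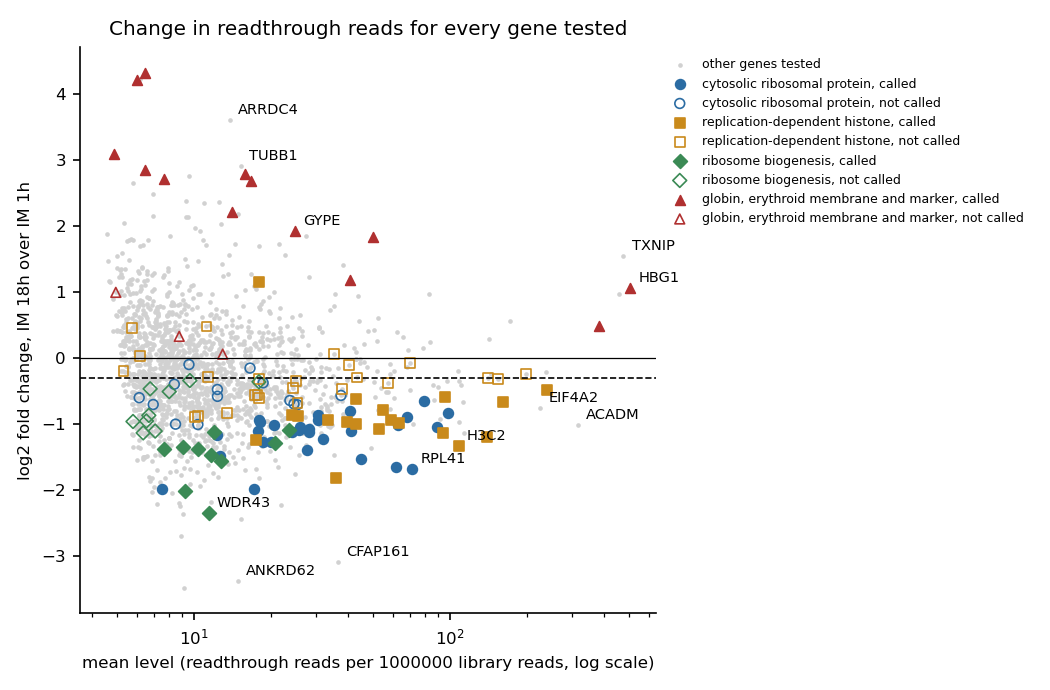
Each point is 1 of the 1720 genes tested, by its mean level (RPM, log scale) and its log2 fold change of IM 18h over IM 1h, with the median of all genes (-0.30) as a dashed line. Filled symbols passed the test; the erythroid symbols lie above 0, and the ribosomal protein and histone symbols lie mostly below the dashed line.

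Several genes of the red cell lineage rose. The globin list has 7 genes in the table, of which 5 were tested and 4 rose (80%, against 4.19% of all genes), with a median log2 fold change of 1.06 (1.35 under TMM factors) against -0.30 (-0.01) for all genes. HBD, HBA1 and HBA2 reached the minimum of 30 reads only through the IM 18h libraries, so count and median are in part set by that minimum, while the sum takes in all 7. The summed level was 666, 663 and 640.3 RPM in the IM 1h libraries and 1178, 1123 and 1211 RPM in the IM 18h libraries. The groups are far apart, and CTRLim, with 770.1, 402 and 520.0 RPM, is spread from below to above the IM 1h values.

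HBG1 (ENST00000330597), a fetal gamma-globin gene, had 346, 335 and 303 RPM at 1 h and 713, 647 and 684 RPM at 18 h. HBE1, the embryonic epsilon-globin gene upstream of it, had 312, 316 and 331 RPM at 1 h and 437, 433 and 466 RPM at 18 h. In both genes every IM 18h library lay above every IM 1h library, by a log2 fold change of 0.48 (SE 0.102) in HBE1, whose call was lost under 1 of the 17 alternatives. HBD, the minor adult delta-globin gene, had 4.46, 6.98 and 1.25 RPM at 1 h and 22.3, 29.7 and 30.4 RPM at 18 h. It rose from 8 reads to 100 (log2 fold change 2.78, SE 0.452, Benjamini-Hochberg adjusted p = 6.49e-07 in the edgeR quasi-likelihood test), and it was nearly without reads in CTRLim, at 0, 0 and 2.03 RPM. HBA2, an alpha-globin gene, had 0, 1.74 and 1.25 RPM at 1 h and 2.13, 7.05 and 17.0 RPM at 18 h, rising from replicate 1 to replicate 3 of IM 18h. Its 2 reads at 1 h and 34 at 18 h give a ratio of 9.77 with a 95% counting interval (exact) from 2.50 to 83.9, and its call was lost under 2 alternatives. Its neighbour HBA1, with 2.97, 3.49 and 3.74 RPM at 1 h and 2.13, 6.26 and 11.1 RPM at 18 h, overlapped between the times and was not called. HBB, the adult beta-globin gene, had 0 reads at 1 h and 4 at 18 h, and HBZ had none. The transcript ENSG00000239920, whose end lies inside the gamma-globin gene HBG2, had 325, 337 and 270.3 RPM at 1 h and 601, 576 and 640.2 RPM at 18 h. The gamma genes are near copies of each other, as are the alpha genes, reads with duplicate names were removed as nonunique, and the region after HBE1 also lies inside the annotated span of HBG2, so the assignment among these genes is uncertain.

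Proteins of the red cell membrane and other erythroid markers have the highest median of the lists with at least 5 genes tested. Of 23 such genes in the table, 11 were tested and 9 rose (81.8%) under library totals and under TMM factors alike, with a median log2 fold change of 2.21 (2.50 under TMM factors). The list summed to 95.1, 99.4 and 129.6 RPM at 1 h and 359.6, 314 and 330.5 RPM at 18 h. All 3 IM 18h sums stand above every other library, CTRLim included, at 104, 64.8 and 79.2 RPM.

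ERMAP, which carries the Scianna blood group, had 16.3, 24.4 and 24.9 RPM at 1 h and 86.2, 75.2 and 74.1 RPM at 18 h. The groups do not overlap (log2 fold change 1.83, SE 0.230, Benjamini-Hochberg adjusted p = 1.53e-10 in the edgeR quasi-likelihood test). GYPE, a glycophorin gene, had 11.9, 5.23 and 12.5 RPM at 1 h and 53.2, 36.8 and 29.6 RPM at 18 h. Every IM 18h library was higher, at a log2 fold change of 1.93 (SE 0.339), though the glycophorin genes are similar in sequence and reads could be split among them. Further members that rose, chosen after their values were seen, include AHSP, KEL, GYPB, HEMGN and BPGM. These 5 passed the minimum of 30 reads only through the IM 18h libraries, so their calls do not support the count of the list. AHSP, whose protein holds free alpha-globin, had 1 read at 1 h and 44 at 18 h, a ratio of 25.3 with a counting interval from 4.31 to 1021. KEL, the Kell blood group gene, had 1 read at 1 h and 41 at 18 h, a ratio of 23.6 with a counting interval from 3.997 to 953. BPGM, which makes the red cell's 2,3-bisphosphoglycerate, had 3 reads and 41, a ratio of 7.85 with a counting interval from 2.50 to 39.6.

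Among 25 transcription factor genes of the erythroid and megakaryocytic lineages, 8 were tested and 2 rose (25%, against 4.19% of all genes), TAL1 and IKZF1. Of these, TAL1 is also counted among the erythroid membrane and marker genes that rose. IKZF1 reached the minimum of 30 reads only with the IM 18h libraries counted in. TAL1, which binds DNA next to GATA1 in erythroid cells, had 19.3, 24.4 and 29.9 RPM at 1 h and 61.7, 52.4 and 56.3 RPM at 18 h. The IM 18h libraries all lay above the IM 1h and CTRLim libraries, the latter at 30.5, 31.5 and 26.4 RPM. IKZF1, a zinc finger factor of blood progenitors, had 13.4, 13.96 and 6.23 RPM at 1 h and 22.3, 23.5 and 23.7 RPM at 18 h. It was called at a log2 fold change of 1.10 (SE 0.370), but not under 6 of the alternatives. The 6 other factors tested, chosen for naming after their values were seen, are GFI1B, KLF1, KLF3, LMO2, MYB and NFE2, none of them called, and the list's median was 0.13 (0.42 under TMM factors). From the megakaryocyte list, only TUBB1, the beta-tubulin of platelets, had enough reads to be tested among 10 genes in the table. TUBB1 had 1.49, 5.23 and 3.74 RPM at 1 h and 36.2, 21.9 and 22.97 RPM at 18 h, and it rose by a log2 fold change of 2.90 (SE 0.470). ATP5F1E, a small subunit gene of ATP synthase on the opposite strand at the end of TUBB1, had 28.2, 40.1 and 41.1 RPM at 1 h and 20.2, 9.39 and 20.7 RPM at 18 h. ATP5F1E fell, at a log2 fold change of -1.13 (SE 0.302), though not under 6 of the alternatives, so the overlapping pair moved in opposite directions.

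Heme synthesis did not follow the globins as a list. Of 9 genes present 4 were tested, and their sum was 275, 305 and 308 RPM at 1 h and 294, 307 and 275 RPM at 18 h, values that overlap. Most of that sum is UROD, uroporphyrinogen decarboxylase, at 233, 263 and 265 RPM at 1 h and 216, 236 and 207 RPM at 18 h. UROD was not called, and the sign of its small difference flips under TMM factors. ABCB10, a transporter of the inner mitochondrial membrane in erythroid cells, had 7.43, 5.23 and 7.47 RPM at 1 h and 26.6, 16.4 and 14.1 RPM at 18 h, and it rose at a log2 fold change of 1.42 (SE 0.422), a call lost under 6 alternatives. FECH, which inserts the iron, had 7.43, 6.98 and 3.74 RPM at 1 h and 14.9, 11.7 and 8.89 RPM at 18 h. The groups did not overlap, but the test did not call FECH with the library totals or under TMM factors. ALAS2, the erythroid enzyme of the first step, was below the minimum with 1 read at 1 h and 13 at 18 h.

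Iron handling genes moved both ways. SLC25A37, the mitoferrin that takes iron into mitochondria of erythroid cells, rose from 4.46, 1.74 and 3.74 RPM at 1 h to 13.8, 18.0 and 14.1 RPM at 18 h, with no overlap and a log2 fold change of 2.13 (SE 0.508). FTL, the ferritin light chain that stores iron, had 74.3, 62.8 and 76.0 RPM at 1 h and 22.3, 36.8 and 22.97 RPM at 18 h. PCBP1, a protein that binds RNA and delivers iron to ferritin, had 14.9, 10.5 and 11.2 RPM at 1 h and 1.06, 5.48 and 2.96 RPM at 18 h, but the region after it lies inside ENSG00000233060. Both fell in every library, FTL at a log2 fold change of -1.37 (SE 0.220) and PCBP1 with -1.82 (SE 0.511). Of 7 iron genes tested, 1 rose (14.3%) and 4 fell (57.1%), against 4.19% and 14.1% of all genes. Under TMM factors 1 rose and 2 fell. SLC25A37 reached the minimum for a test only through the IM 18h libraries. The share of iron genes that rose is therefore in part set by that minimum.

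Promoter sequences of members that rose together are shown because the list shares a function that the test did not use. The table of RefSeq promoters for GRCh38.p14 gives 300 bases around each start and holds 1349 of the 1720 genes tested (78.4%) and 49 of the 72 called higher (68.1%). That is too few to compare shares over the tested genes, so such a comparison is void, and counts are given only for lists with a promoter for at least 80% of their tested members. The letters AGATAA, bound by GATA factors in erythroid cells, were sought on both strands, and a match on the opposite strand reads TTATCT. They occur in 10.5% of all 27305 promoters and in 4 of the 9 promoters of the erythroid membrane and marker list, those of GYPB, GYPE, KEL and TAL1, of which GYPB and KEL were chosen after their values were seen. GYPB, GYPE and KEL were tested only with the IM 18h libraries counted in. Which promoters make up the 9 is therefore in part set by the minimum of reads. HBD, which also holds them, is the 1 of 5 globin genes tested that has a promoter in the table, so nothing is read from it about the globin list. A match is a description, not a site or a cause. TAL1 lies at chr1:47232286-47232585 on the minus strand, GYPE at chr4:143905510-143905809 on the minus strand and HBD at chr11:5234434-5234733 on the minus strand, and each is written 5′ to 3′ along its gene with the match in capitals, which starts 35, 45 and 78 bases before the start.
TAL1: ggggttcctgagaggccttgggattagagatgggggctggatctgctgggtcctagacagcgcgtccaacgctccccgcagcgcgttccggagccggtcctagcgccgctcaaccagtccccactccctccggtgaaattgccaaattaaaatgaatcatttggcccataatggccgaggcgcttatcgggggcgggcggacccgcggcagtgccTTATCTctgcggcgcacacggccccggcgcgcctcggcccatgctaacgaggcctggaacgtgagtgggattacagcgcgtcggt
GYPE: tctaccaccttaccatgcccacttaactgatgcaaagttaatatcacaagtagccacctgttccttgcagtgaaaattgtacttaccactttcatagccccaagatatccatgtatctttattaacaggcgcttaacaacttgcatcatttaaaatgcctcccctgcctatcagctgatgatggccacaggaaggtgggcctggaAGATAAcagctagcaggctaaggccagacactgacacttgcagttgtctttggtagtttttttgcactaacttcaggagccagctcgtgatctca
HBD: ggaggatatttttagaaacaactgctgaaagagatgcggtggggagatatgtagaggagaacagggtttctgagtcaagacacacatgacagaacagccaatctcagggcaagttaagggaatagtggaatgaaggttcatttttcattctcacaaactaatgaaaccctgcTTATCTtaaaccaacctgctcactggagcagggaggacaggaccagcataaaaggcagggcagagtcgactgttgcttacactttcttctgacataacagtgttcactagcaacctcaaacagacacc

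**Figure D2:**
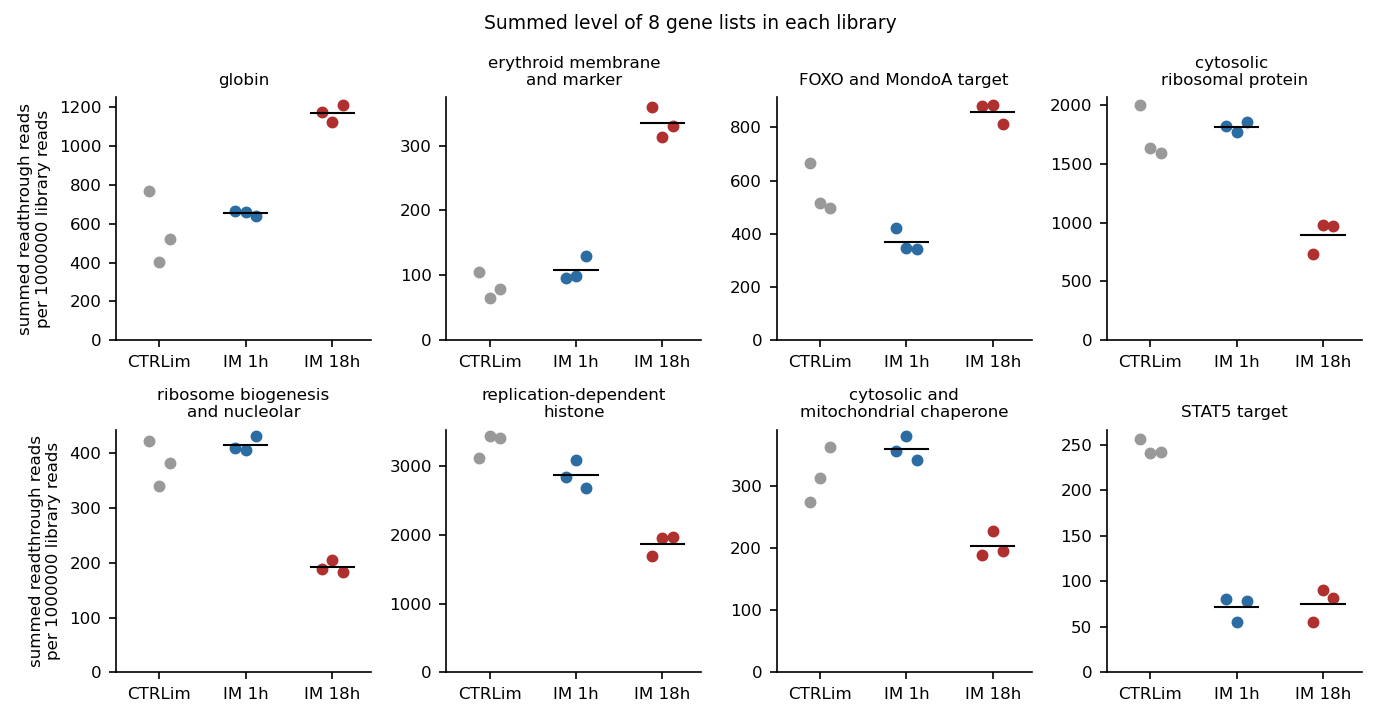
Each point is 1 library, with the summed RPM of a gene list on an axis that starts at 0, and bars mark the means of IM 1h and IM 18h. Globin and erythroid membrane lists are higher at 18 h than at 1 h in all libraries, ribosomal protein, ribosome biogenesis, histone and chaperone lists are lower in all, and the STAT5 list is below CTRLim at both times.

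The gene with the most additional readthrough reads was TXNIP (ENST00000582401), whose protein binds thioredoxin and limits glucose uptake and which FOXO factors and the glucose sensor MondoA activate. It had 273, 229 and 225 RPM at 1 h and 703, 758 and 665 RPM at 18 h, and 496, 374 and 372 RPM in CTRLim. Its order is thus lowest at 1 h, intermediate in untreated cells and highest at 18 h, without overlap between the 3 groups. ARRDC4, an arrestin-like relative of TXNIP with the same activators, had 2.97, 0 and 2.49 RPM at 1 h and 31.9, 29.7 and 15.6 RPM at 18 h. With 4 reads at 1 h and 89 at 18 h it rose in all libraries (log2 fold change 3.61, SE 0.540, Benjamini-Hochberg adjusted p = 7.63e-08 in the edgeR quasi-likelihood test). ARRDC4 reached the minimum of 30 reads only through the IM 18h libraries, so the share of its list is in part set by that minimum. The list of FOXO and MondoA targets has 23 genes in the table and 8 tested, of which these 2 rose (25%, against 4.19% of all genes), and the other 6, chosen for naming after their values were seen, were not called, namely ARRDC3, BCL2L11, BTG1, CDKN1B, FOXO3 and GADD45A. Its sum of 370.5 ± 43.3 RPM at 1 h and 859 ± 41.5 RPM at 18 h (SD, n = 3) is therefore mostly TXNIP, and its median log2 fold change was 0.30 (0.59 under TMM factors).

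Direct targets of the kinase's own pathway showed another order. STAT5 targets summed to 257, 241 and 242 RPM in CTRLim, 80.2, 55.8 and 78.5 RPM at 1 h and 55.3, 90.0 and 81.5 RPM at 18 h. The treated groups overlap and both lie far below CTRLim. PIM1, a survival kinase that STAT5 switches on, had 82.7, 79.6 and 77.2 RPM in CTRLim, 4.46, 5.23 and 9.97 RPM at 1 h and 16.0, 32.1 and 19.3 RPM at 18 h. It rose between the 2 times (log2 fold change 1.73, SE 0.414, Benjamini-Hochberg adjusted p = 0.00112 in the edgeR quasi-likelihood test), in all 3 libraries, yet stayed below every CTRLim library. CISH, a feedback inhibitor of STAT5, had 39.2, 31.5 and 42.7 RPM in CTRLim, 2.97, 1.74 and 3.74 RPM at 1 h and 1.06, 8.61 and 11.9 RPM at 18 h, where IM 18h replicate 1 was as low as the IM 1h libraries and the gene was not called, while without that library it was called higher. MYC, the growth regulator, had 82.7, 57.4 and 60.9 RPM in CTRLim, 43.1, 36.6 and 43.6 RPM at 1 h and 25.5, 26.6 and 29.6 RPM at 18 h. The MYC values form 3 groups without overlap, but the difference between the times was not called, at a log2 fold change of -0.59 (SE 0.251). CCND3, a D-type cyclin, with 11.9, 0 and 9.97 RPM at 1 h and 2.13, 7.05 and 12.6 RPM at 18 h, overlapped, and it completes the 4 STAT5 targets tested among 15 in the table.

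Of 35 immediate early genes and genes of ERK feedback in the table, 5 had enough reads for a test. Of these 5, 1 rose, KLF10 (20%, against 4.19% of all genes). KLF10 had 7 reads at 1 h and 64 at 18 h. It reached the minimum for a test only through the IM 18h libraries. The share of its list is therefore in part set by that minimum. KLF10, a zinc finger repressor induced by TGF-beta, had 1.49, 6.98 and 2.49 RPM at 1 h and 20.2, 20.4 and 14.1 RPM at 18 h, higher in all libraries by a log2 fold change of 2.35 (SE 0.499). DUSP1, a phosphatase that turns off MAP kinases, had 11.9, 13.96 and 4.98 RPM at 1 h and 17.0, 15.7 and 23.7 RPM at 18 h, without overlap, and it was called under TMM factors but not with the library totals. MCL1, a short-lived survival protein, had 16.3, 12.2 and 16.2 RPM at 1 h and 11.7, 9.39 and 6.67 RPM at 18 h and was not called. KLF6 and ZFP36L2 overlapped between the times and were not called either. FOSB, EGR2, DUSP2 and DUSP5 had no read at either time, and JUN had 19 reads at 1 h and 9 at 18 h.

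**Figure D3:**
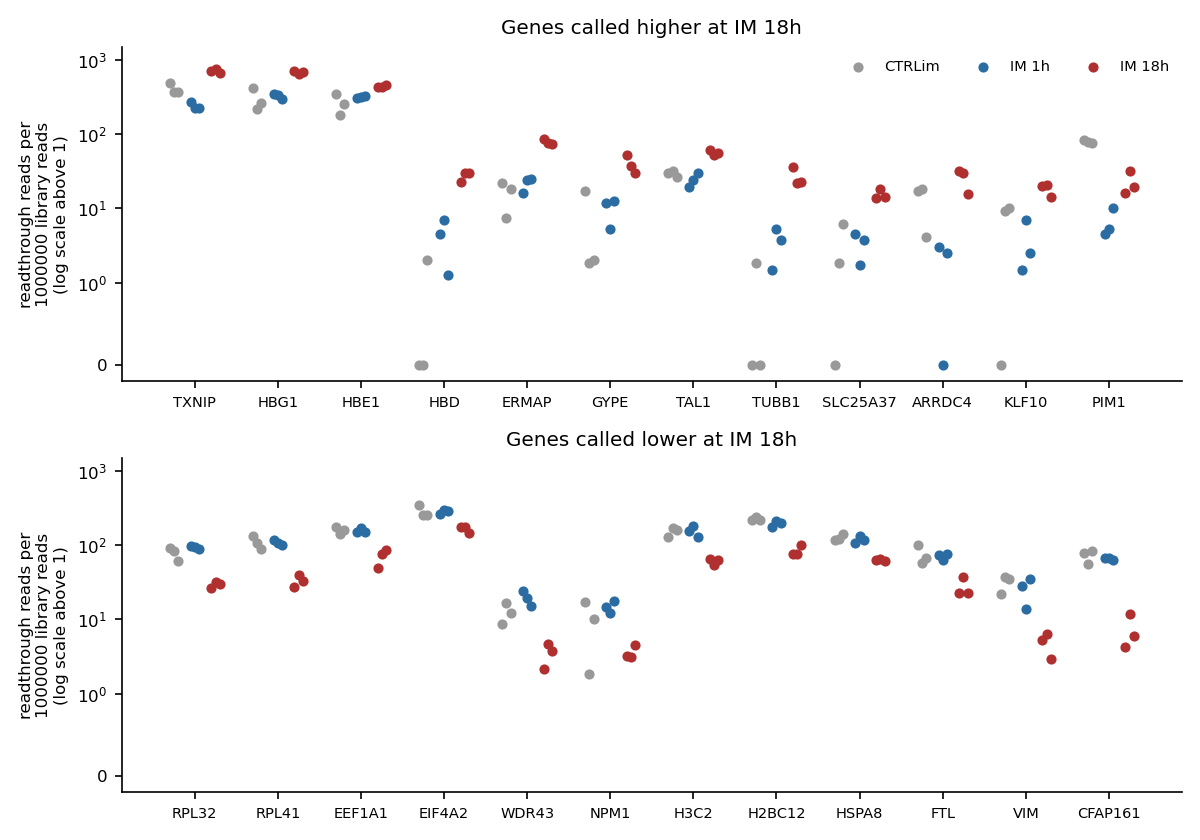
Each point is 1 library, in RPM on a scale that is logarithmic above 1, for 12 genes called higher and 12 called lower at 18 h. In each gene the 3 IM 18h points lie on 1 side of the 3 IM 1h points, and PIM1 is the gene of the upper panel whose CTRLim points lie above both.

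The class with the most genes that fell was that of cytosolic ribosomal proteins. Of 72 such genes, 43 were tested, 29 fell (67.4%, against 14.1% of all genes) and 0 rose, and the list's median log2 fold change was -1.01. Every tested member lay below 0, and under TMM factors 41 of 43 did, 15 fell and the median was -0.72. The summed level was 1819, 1767 and 1857 RPM at 1 h and 731, 978 and 972 RPM at 18 h. IM 18h replicate 1 is the lowest of its group, and all 3 are far under both IM 1h and CTRLim, at 2001, 1631 and 1593 RPM.

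RPL32, a protein of the large subunit, had 96.6, 94.2 and 89.7 RPM at 1 h and 26.6, 32.1 and 29.6 RPM at 18 h. It fell in every library (log2 fold change -1.65, SE 0.200, Benjamini-Hochberg adjusted p = 2.69e-11 in the edgeR quasi-likelihood test). RPL41, which encodes a very short basic protein, had 119, 108 and 99.7 RPM at 1 h and 27.7, 39.1 and 33.3 RPM at 18 h, but the region after it lies inside ESYT1 and ZC3H10. It also fell in each library, at a log2 fold change of -1.68 (SE 0.190). By subunit, 15 of 25 large subunit genes tested and 14 of 18 small subunit genes were called lower (10 and 5 under TMM factors), with medians of -1.01 and -1.02 (-0.71 and -0.72 under TMM factors). For the mitochondrial ribosome the share was near that of all genes. Of 22 such genes tested 3 fell (13.6%, against 14.1% of all genes), MRPL36, MRPS22 and MRPS7, whose calls were lost under 6, 11 and 13 alternatives, with a median of -0.58 (-0.28 under TMM factors), and under TMM factors edgeR called 0.

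Genes of ribosome assembly fell as well. The nucleolar list of 76 genes had 19 tested, of which 10 fell (52.6%, against 14.1% of all genes) and 0 rose, all 19 lay below 0 under both scalings, and the median was -1.12 (-0.83 and 4 lower under TMM factors). Its sum was 410.1, 406 and 431 RPM at 1 h and 189, 205 and 184 RPM at 18 h. The IM 18h libraries lie close together at less than any IM 1h or CTRLim library, the latter at 422, 341 and 382 RPM. WDR43, part of the complex that processes the small subunit RNA, had 23.8, 19.2 and 14.9 RPM at 1 h and 2.13, 4.70 and 3.70 RPM at 18 h. It fell from 39 reads to 13 against deeper libraries (log2 fold change -2.35, SE 0.448, Benjamini-Hochberg adjusted p = 2.9e-05 in the edgeR quasi-likelihood test). NPM1, the abundant nucleolar chaperone nucleophosmin, had 14.9, 12.2 and 17.4 RPM at 1 h and 3.19, 3.13 and 4.45 RPM at 18 h. BYSL, a factor of small subunit assembly, had 16.3, 24.4 and 16.2 RPM at 1 h and 8.51, 7.05 and 3.70 RPM at 18 h. Both fell in every library, NPM1 at a log2 fold change of -2.01 (SE 0.472) and BYSL at -1.57 (SE 0.409), and each lost its call under 1 alternative. WDR43, NPM1 and BYSL reached the minimum for a test only with the IM 1h libraries counted in. The count, the signs and the median of the nucleolar list are therefore in part set by that minimum, while the sum takes in all 76 genes.

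Translation factors fell in part. Among 66 genes 18 were tested, and 5 fell (27.8%, against 14.1% of all genes) and 0 rose, and under TMM factors 2 fell and 1 rose. The median was -0.53 (-0.24 under TMM factors). EEF1A1, the elongation factor that brings aminoacyl-tRNA to the ribosome, had 149, 173 and 152 RPM at 1 h and 50.002, 75.2 and 85.2 RPM at 18 h. EIF4A2, an RNA helicase of initiation, had 263, 298 and 288 RPM at 1 h and 177, 175 and 148 RPM at 18 h. Neither overlapped between the times, and the log2 fold changes were -1.15 (SE 0.158) for EEF1A1 and -0.77 (SE 0.121) for EIF4A2, whose call was lost under 1 alternative. EIF1, a small factor of start codon choice, had 13.4, 27.9 and 12.5 RPM at 1 h and 7.45, 4.70 and 6.67 RPM at 18 h and fell at a log2 fold change of -1.46 (SE 0.418), a call lost under 4 alternatives.

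The replication-dependent histone genes, which end in a stem-loop and are cut by U7 snRNA machinery in place of polyadenylation, had the largest sum of any list. It was 3124, 3442 and 3410.5 RPM in CTRLim, 2836, 3095 and 2687 RPM at 1 h and 1693, 1948 and 1968 RPM at 18 h, so that the IM 18h libraries lay below all others. Of 43 genes tested 18 fell (41.9%) and 1 rose (2.33%), against 14.1% and 4.19% of all genes, and under TMM factors 9 fell and 1 rose. The median was -0.60 (-0.30 under TMM factors). Of all tested genes over 50 RPM 46.5% fell, so this share may also reflect the level of histone genes, which was not tested. Genes that fell were found among all core histone types, 7 of 11 H2A, 3 of 9 H2B, 3 of 9 H3 and 5 of 9 H4 genes lower, while 0 of 5 linker histone H1 genes were called by edgeR with either scaling. The H1 sum was 266, 286 and 272 RPM at 1 h and 215, 244 and 235 RPM at 18 h. H2AC11 is the histone gene that rose, chosen after its values were seen, with 14.9, 6.98 and 11.2 RPM at 1 h and 23.4, 23.5 and 28.2 RPM at 18 h.

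H3C2, an H3 gene of the large cluster on chromosome 6, had 156, 179.7 and 129.6 RPM at 1 h and 66.0, 54.0 and 63.0 RPM at 18 h. No library overlapped (log2 fold change -1.34, SE 0.161, Benjamini-Hochberg adjusted p = 2.33e-11 in the edgeR quasi-likelihood test). H2BC12, an H2B gene of that cluster, had 178, 209 and 198 RPM at 1 h and 75.5, 75.9 and 101 RPM at 18 h, and H4C9, an H4 gene, had 131, 131 and 126 RPM at 1 h and 56.4, 62.6 and 57.1 RPM at 18 h. They fell at log2 fold changes of -1.21 (SE 0.145) and -1.13 (SE 0.165), again without overlap. H2AC4, an H2A gene, fell at a log2 fold change of -1.82 (SE 0.269), but the region after it lies inside H3C2. Histone genes are near copies of each other, and reads with duplicate names were removed as nonunique, so values of single histone genes are uncertain.

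Histone promoters are shown because most of them share the letters CCAAT, whether or not the gene fell. CCAAT, or ATTGG where the match is on the other strand, occurs in 35.7% of all promoters in the table and in 33 of the 39 histone promoters (84.6%), which cover 90.7% of the histone genes tested. In the ribosomal protein list it is in 13 of 35 (37.1%). H3C2 lies at chr6:26032050-26032349 on the minus strand with 2 matches, and H2BC12 at chr6:27146809-27147108 on the minus strand with 6. The promoter of TXNIP, at chr1:145996530-145996829 on the minus strand, is set beside them with 2 matches, since 6 of the 7 promoters of FOXO and MondoA targets hold these letters as well and that list did not fall. Capitals mark CCAAT and ATTGG, both strands were read, and a match describes letters only.
H3C2: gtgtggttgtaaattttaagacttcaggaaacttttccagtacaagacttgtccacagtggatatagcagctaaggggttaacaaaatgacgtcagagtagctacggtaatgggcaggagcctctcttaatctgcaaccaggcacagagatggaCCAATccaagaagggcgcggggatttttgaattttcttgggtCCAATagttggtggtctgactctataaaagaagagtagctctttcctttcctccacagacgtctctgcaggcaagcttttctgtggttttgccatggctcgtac
H2BC12: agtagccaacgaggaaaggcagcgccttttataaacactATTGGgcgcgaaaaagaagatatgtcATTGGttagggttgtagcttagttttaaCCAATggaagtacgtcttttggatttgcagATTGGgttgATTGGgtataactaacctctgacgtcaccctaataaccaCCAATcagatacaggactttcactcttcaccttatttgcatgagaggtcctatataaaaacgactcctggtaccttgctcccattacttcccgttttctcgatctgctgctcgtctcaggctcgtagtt
TXNIP: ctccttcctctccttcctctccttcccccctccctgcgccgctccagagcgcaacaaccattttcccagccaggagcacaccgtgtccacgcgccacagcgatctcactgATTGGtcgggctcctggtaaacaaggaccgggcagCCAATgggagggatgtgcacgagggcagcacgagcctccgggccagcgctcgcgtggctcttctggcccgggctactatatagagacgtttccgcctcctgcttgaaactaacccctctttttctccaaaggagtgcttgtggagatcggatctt

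For other genes of the dividing cell the shares are set against the 14.1% of all genes that fell. DNA replication genes had 12 tested and 1 lower (8.33%), RFC5, whose call was lost under 10 alternatives, TMM factors among them, with a median of -0.35 (-0.06 under TMM factors). Mitosis genes had 27 tested and 3 lower (11.1%), CDCA8, PTTG1 and KIF20A, and each of these calls was lost under at least 10 alternatives. Of 7 cyclins, CDKs and their inhibitors tested 1 fell and 1 rose. CDK4, the partner of D-type cyclins, fell from 16.3, 15.7 and 26.2 RPM at 1 h to 2.13, 9.39 and 8.15 RPM at 18 h, though not under 3 of the alternatives. CDKN2C, an inhibitor of CDK4 and CDK6, rose from 10.4, 12.2 and 17.4 RPM to 26.6, 25.1 and 25.9 RPM at a log2 fold change of 0.92 (SE 0.342), a call lost under 13 of the alternatives. Both changed without overlap, and the median of this list flips from -0.18 to 0.11 under TMM factors.

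Most chaperone genes tested fell. Of 26 cytosolic and mitochondrial chaperone genes 7 were tested and 5 fell (71.4%, against 14.1% of all genes), HSPA8, HSP90AB1, CCT5, TRAP1 and HSPA9, with a median of -1.04, and under TMM factors 2 fell with a median of -0.74. TRAP1 and HSPA9 were chosen after their values were seen, and CCT5, HSP90AB1 and HSPA8 lost their calls under 5, 2 and 1 alternatives. HSPA8, the constitutive HSP70, had 108, 133 and 118 RPM at 1 h and 62.8, 65.0 and 61.5 RPM at 18 h. HSP90AB1, the constitutive HSP90, had 44.6, 48.8 and 43.6 RPM at 1 h and 23.4, 29.0 and 14.1 RPM at 18 h. Every IM 18h library lay below every IM 1h library in both. Chaperones of the endoplasmic reticulum had 3 genes tested and 0 called by edgeR with either scaling, the most read of which, DNAJB9, had 23.8, 29.7 and 19.9 RPM at 1 h and 18.1, 17.2 and 17.0 RPM at 18 h.

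Targets of the integrated stress response had 8 tested, 2 lower (25%, against 14.1% of all genes) and 0 higher, with a median of -0.71 (-0.42 under TMM factors). DDIT4, an inhibitor of mTORC1 that stress switches on, had 39.2, 35.2 and 63.0 RPM in CTRLim, 10.4, 29.7 and 22.4 RPM at 1 h and 2.13, 7.05 and 9.63 RPM at 18 h. All IM 18h libraries are below all others, and the log2 fold change of -1.60 (SE 0.404) was not called under 3 alternatives. SLC38A2, an amino acid transporter of the same response, fell from 68.3, 75.0 and 76.0 RPM to 53.2, 43.1 and 34.1 RPM, a call lost under 5 alternatives, TMM factors among them. Aminoacyl-tRNA synthetase genes had 11 tested, 10 of them below 0 under both scalings, with a median of -0.92 (-0.63 under TMM factors). Their sum was 162, 215 and 181 RPM at 1 h and 120.2, 100.2 and 107 RPM at 18 h, without overlap. YARS1 and KARS1 fell (18.2%, against 14.1% of all genes), with calls lost under 9 and 10 alternatives, and EPRS1 rose, and under TMM factors only EPRS1 was called. EPRS1, the glutamyl- and prolyl-tRNA synthetase, had 4.46, 5.23 and 4.98 RPM at 1 h and 23.4, 9.39 and 8.89 RPM at 18 h. The increase rests most on IM 18h replicate 1, and 9 of the alternatives did not call it.

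Glycolysis had 6 genes tested of 21 and 3 lower (50%, against 14.1% of all genes), PGAM1, LDHB and TPI1, with sums of 150.1, 145 and 158 RPM at 1 h and 77.7, 79.8 and 73.4 RPM at 18 h. The sums do not overlap, and the median was -1.09 (-0.80 under TMM factors, with PGAM1 alone called), and LDHB, TPI1 and PGAM1 lost their calls under 10, 9 and 2 alternatives. The region after LDHB lies inside ENSG00000285854. PGAM1, phosphoglycerate mutase, fell from 19.3, 19.2 and 17.4 RPM to 3.19, 7.83 and 8.15 RPM. Nuclear genes of the respiratory chain had 21 tested and 5 lower (23.8%; 2 under TMM factors), with a median of -0.62 (-0.33 under TMM factors). Their sum was 443, 438 and 439.7 RPM at 1 h and 259.6, 269 and 263 RPM at 18 h, with little spread in either group. UQCR10, a small subunit of complex III, had 17.8, 36.6 and 26.2 RPM at 1 h and 8.51, 7.05 and 8.89 RPM at 18 h. UQCRFS1, the Rieske iron-sulfur protein of that complex, had 20.8, 22.7 and 21.2 RPM at 1 h and 7.45, 7.83 and 8.89 RPM at 18 h. Both fell without overlap, at log2 fold changes of -1.69 (SE 0.363) and -1.39 (SE 0.372). Of 5 citrate cycle genes tested CS fell (20%), with groups that overlap and a call lost under 12 alternatives, and under TMM factors CS was not called and DLD, chosen after its values were seen, was called higher.

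Nucleotide synthesis had 11 genes tested and 1 lower (9.09%, against 14.1% of all genes), and under TMM factors 1 lower and 1 higher, the latter ATIC, chosen after its values were seen. PAICS, a bifunctional enzyme of purine synthesis, had 13.4, 13.96 and 6.23 RPM at 1 h and 3.19, 1.57 and 2.96 RPM at 18 h and fell at a log2 fold change of -2.04 (SE 0.545). Of 9 cholesterol and fatty acid synthesis genes tested edgeR called 0 with the library totals and 1, INSIG1, under TMM factors, where the list's median flips from -0.28 to 0.02. INSIG1, a sterol sensor of the endoplasmic reticulum, had 49.0, 41.9 and 38.6 RPM at 1 h and 55.3, 50.9 and 66.7 RPM at 18 h.

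Genes of splicing and RNA processing are set against all genes, of which 14.1% fell. Of 28 SR and hnRNP protein genes tested 6 fell (21.4%) and 1 rose, with a median of -0.50 (-0.20 under TMM factors, with 1 lower and 1 higher). HNRNPA1, which binds pre-mRNA and often blocks splice sites, had 40.1, 34.9 and 42.4 RPM at 1 h and 14.9, 14.9 and 17.0 RPM at 18 h, but the region after it lies inside ENSG00000258344. SRSF2, an SR protein that binds exons, had 66.9, 68.0 and 83.5 RPM at 1 h and 44.7, 48.5 and 49.6 RPM at 18 h. Both fell without overlap, though SRSF2 lost its call under 7 alternatives. HNRNPA0, a relative of HNRNPA1, rose from 5.94, 1.74 and 6.23 RPM to 11.7, 17.2 and 12.6 RPM, also a call lost under 7. Core spliceosome genes had 11 tested and 1 lower (9.09%), SNRPB, a call lost under 9 alternatives, and a median of -0.54 (-0.25 under TMM factors). The machinery that makes 3′ ends, with the cleavage, polyadenylation and Integrator genes, had 11 tested and 1 lower (9.09%), INTS4, whose call was lost under 15 alternatives. Its median was 0.00 (0.29 under TMM factors), above that of all genes. The sum of this list was nonetheless lower without overlap, at 236, 220 and 237 RPM at 1 h and 168, 188 and 202 RPM at 18 h. Of 13 DEAD- and DEAH-box helicase genes tested DDX5, DDX18 and DDX20 fell (23.1%), with a median of -0.66 (-0.37 under TMM factors, where DDX18 alone was called). The calls of DDX5 and DDX20 were lost under 5 and 13 alternatives, and DDX5, a helicase of splicing and transcription, had 144, 148 and 119.6 RPM at 1 h and 96.8, 86.9 and 76.3 RPM at 18 h.

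Over all genes tested 14.1% fell, against which the shares of the remaining lists are set. Among 9 genes of the actin cytoskeleton list tested 3 fell (33.3%), and under TMM factors 1, VIM, which is no actin gene. VIM, the intermediate filament protein vimentin, had 28.2, 13.96 and 34.9 RPM at 1 h and 5.32, 6.26 and 2.96 RPM at 18 h. It fell at a log2 fold change of -2.44 (SE 0.402) without overlap. TUBA1B, an alpha-tubulin, fell from 99.5, 85.5 and 103 RPM to 29.8, 57.1 and 54.8 RPM, in contrast to the platelet tubulin TUBB1. Of 49 numbered zinc finger genes tested 7 fell (14.3%) and 0 rose (4 and 0 under TMM factors), led by ZNF239 with 37.1, 27.9 and 49.8 RPM at 1 h and 10.6, 9.39 and 14.1 RPM at 18 h. Their median of -0.32 (-0.03 under TMM factors) is near that of all genes. Solute carriers had 26 tested, 5 lower (19.2%) and 1 higher, and under TMM factors 0 lower and 2 higher. Proteasome and related genes had 13 tested and 3 lower (23.1%), PSMC3IP, PSMC5 and PSMA7. The calls of PSMC5 and PSMA7 were lost under 15 and 14 alternatives, TMM factors among them, and PSMC3IP, lost under 4, was caught by its name and is no proteasome subunit. Autophagy and lysosome genes had 6 tested and 1 lower (16.7%), ATP6V1G1, and BCL2 family genes 4 tested and 1 lower (25%), BID, whose groups overlap. These calls were lost under 11 and 9 alternatives, TMM factors among them. The 1229 genes in no list had 46 higher and 122 lower (78 and 44 under TMM factors), and their median flips from -0.19 to 0.10.

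**Figure D4:**
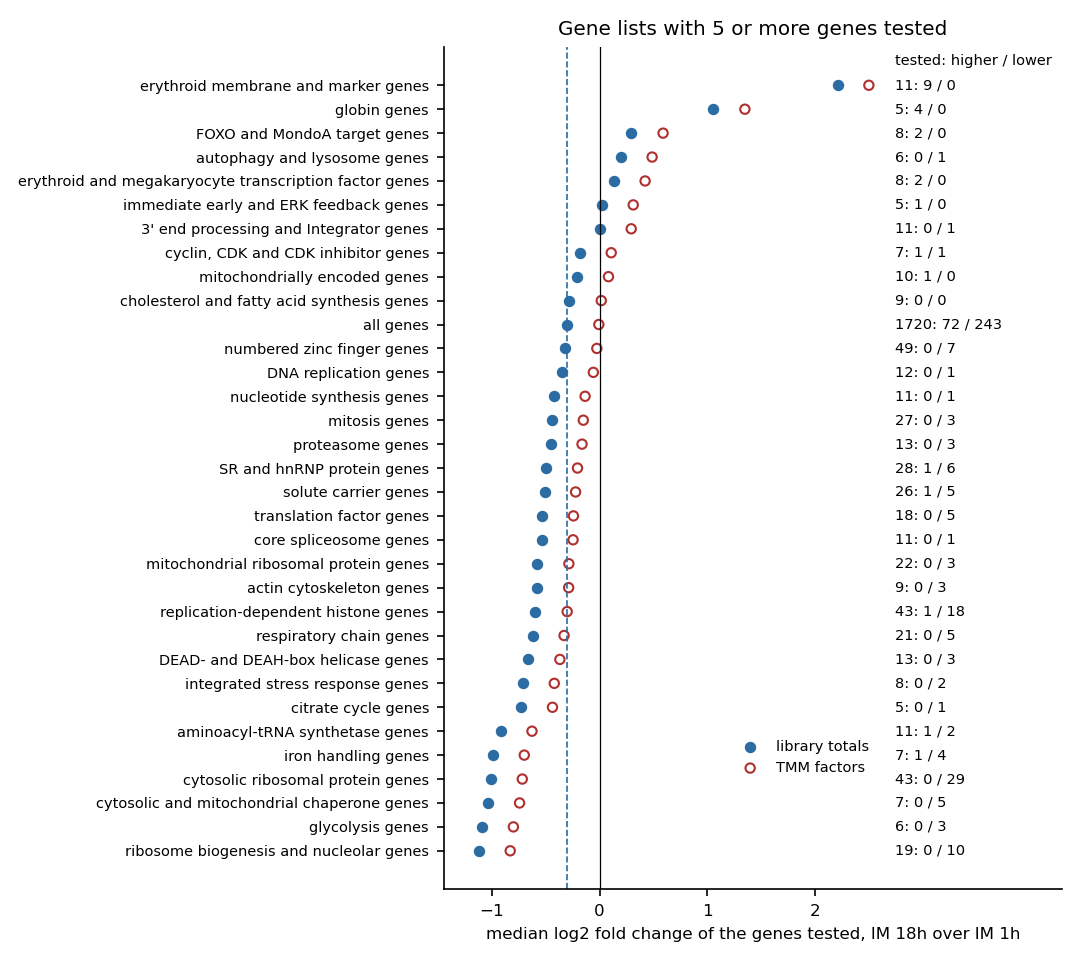
Median log2 fold change of IM 18h over IM 1h in each list with at least 5 genes tested, with library totals (filled) and TMM factors (open), and the numbers tested, higher and lower at the right. The median of all genes is -0.30 and moves to -0.01 under TMM factors, and the order of the lists is led by erythroid membrane and globin genes and closed by ribosome biogenesis genes.

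Some of the called genes with the lowest p in the edgeR test belong to no class. CFAP161, a gene of motile cilia on chromosome 15, had 78.3, 55.5 and 83.3 RPM in CTRLim, 66.9, 68.0 and 62.3 RPM at 1 h and 4.26, 11.7 and 5.93 RPM at 18 h. Only the IM 18h libraries are low. ANKRD62, which encodes an ankyrin repeat protein, had 26.7, 20.9 and 33.6 RPM at 1 h and 2.13, 4.70 and 0.741 RPM at 18 h and fell at a log2 fold change of -3.39 (SE 0.450). ACADM, an enzyme of fatty acid oxidation, had 416, 450.1 and 405 RPM at 1 h and 220.2, 201 and 203 RPM at 18 h, but the region after it lies inside RABGGTB. ERV3-1, an endogenous retroviral envelope gene, rose from 28.2, 10.5 and 22.4 RPM to 55.3, 64.2 and 48.2 RPM, and the region after it lies inside ZNF117. ENSG00000256206, whose region lies inside COPB1, rose from 68.3, 50.6 and 48.6 RPM to 122, 90.0 and 116 RPM, and the unmatched transcript ENST00000368147 from 13.4, 8.72 and 12.5 RPM to 57.4, 34.4 and 37.8 RPM.

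Levels of the 11 mitochondrially encoded genes, 10 of them tested, depended on single libraries. Their sum was 435, 368 and 406 RPM at 1 h and 796, 176 and 404 RPM at 18 h, so that IM 18h replicate 1 was the highest of the 6 and IM 18h replicate 2 the lowest. MT-ND5, a subunit of complex I, was called higher with 192, 112 and 109.6 RPM at 1 h and 340.4, 54.8 and 219 RPM at 18 h, but the groups overlap and 9 alternatives did not call it. The region after MT-ND5 lies inside MT-CYB. The list's median flips from -0.21 to 0.08 under TMM factors.

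Gene structure was read for the 1674 tested genes with a position in GENCODE 44. Short genes fell more often, namely 71 of 260 genes spanning under 5 kb fell (27.3%), 86 of 508 from 5 to 20 kb (16.9%), 38 of 408 from 20 to 50 kb (9.31%) and 37 of 498 over 50 kb (7.43%). The share that rose hardly varied, at 4.62%, 3.94%, 4.17% and 4.42%. Under TMM factors 31, 37, 11 and 12 genes of these classes fell and 19, 31, 22 and 38 rose. In both classes over 20 kb more genes then rose than fell. Without ribosomal protein and histone genes, which are short, 38 of 199 genes under 5 kb fell (19.1%) and 73 of 485 from 5 to 20 kb (15.1%), so the order of the shares held. The medians of these 2 classes then turn, to -0.32 and -0.38 (-0.04 and -0.09 under TMM factors). Over all genes the medians were -0.45, -0.40, -0.25 and -0.06 from the shortest to the longest class, and under TMM factors -0.16, -0.11, 0.04 and 0.23, where the classes over 20 kb flip to above 0. Genes that fell had a median span of 9154 bases, those that rose 26768 and those not called 26803.

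**Figure D5:**
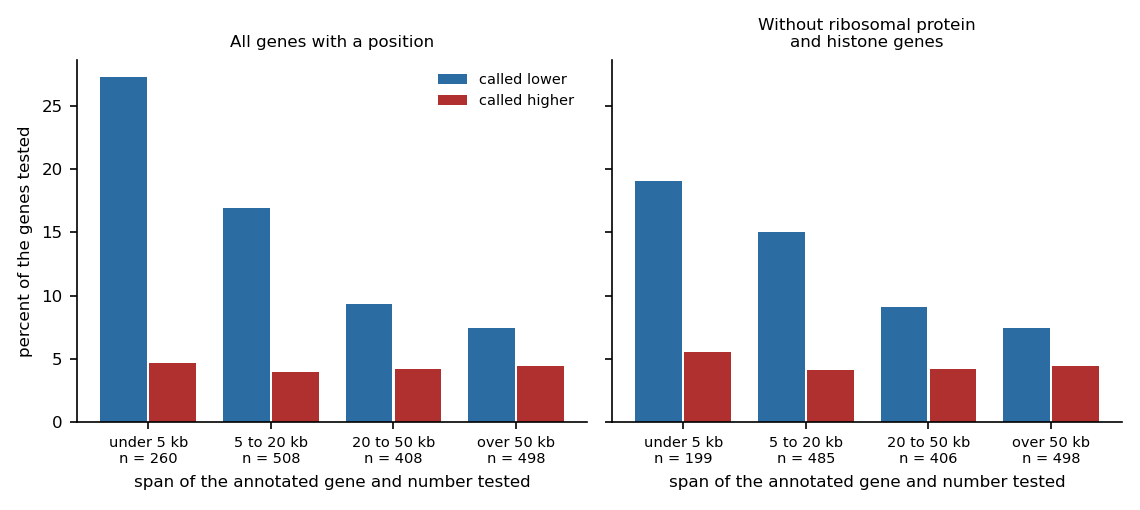
Percent of the tested genes called lower and higher at 18 h by the span of the annotated gene, for all genes with a position and without ribosomal protein and histone genes. With library totals, the share of all genes called lower drops from 27.3% under 5 kb to 7.43% over 50 kb, and the share called higher stays between 3.94% and 4.62%.

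Genes with a single exon fell in 25 of 103 cases (24.3%), but without ribosomal protein and histone genes in 7 of 64 (10.9%), so this share comes mostly from those genes. By level, 50 of 901 genes under 10 RPM fell (5.55%) and 33 of 71 over 50 RPM (46.5%), and 26 and 8 rose. Since more reads give the test more to work with, shares called at different levels cannot be set against each other, and the medians of these classes were -0.15 and -0.45 (0.14, a flip, and -0.15 under TMM factors). The shares of lists given beside those of all genes carry the same limit. What lies downstream also differed between genes. For 121 genes a coding gene on the opposite strand begins within 5 kb, and of these 29 fell (23.97%) and 1 rose (0.826%), with a median of -0.55 (-0.26 under TMM factors). For 762 genes no coding gene begins within 5 kb, and of these 95 fell (12.5%) and 37 rose (4.86%), with a median of -0.25 (0.04 under TMM factors, a flip). Under TMM factors 13 of the 121 genes fell and 3 rose, and 41 of the 762 genes fell and 56 rose. In 256 genes the 1000 nt from the 100 nt boundary on lie inside another gene of the same strand, so reads of that other gene may be counted. Of these 256 genes 16 rose (6.25%) and 25 fell (9.77%), against 4.19% and 14.1% of all genes. Under TMM factors 26 rose and 12 fell. In 449 genes the 1000 nt overlap a gene of the opposite strand. A counted read had to overlap the last exon, and a read over several genes was given to the one it covered most. The counting is not stated to use strand, so reads of the 2 genes may still be mixed. Of these 449 genes 13 rose (2.90%) and 69 fell (15.4%), and under TMM factors 21 rose and 19 fell.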

How the data were processed

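The authors mapped the reads to GRCh38.p14 (cutadapt, minimap2), removed splicing intermediates, duplicates by molecular tag, and reads that were polyadenylated or nonunique (with duplicate read names), and deposited unnormalized counts of readthrough reads for 13051 transcripts. Library totals without polyadenylated reads and intermediates come from the study's supplement. Genes with at least 30 reads over the 6 libraries were fitted with edgeR 4.0.16 (glmQLFit, glmQLFTest, library totals, no further factors; R 4.3.3), with calls at a Benjamini-Hochberg adjusted p under 0.05. The 17 alternatives were DESeq2 1.42.0 with 2 kinds of size factors, other totals, TMM factors, other minimum counts, CTRLim in the fit, a replicate block, each library left out, and the IM 1h libraries summed, the last chosen after the data were seen. Named genes are the 12 called genes of each direction with the lowest p and no overlap, up to 3 called members of each list or else its most read member, and members completing the globin, heme, STAT5 and immediate early lists. Lists, markers and naming were chosen with earlier results of these data known. Python 3.11.15 (pandas 2.3.3) gave levels and lists, and GENCODE 44 gave positions.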

Additional observations from a re-analysis of the deposited data

How the results depend on the processing

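Of 1720 genes tested, 315 changed, 72 higher and 243 lower. DESeq2 with its own size factors called 63, 42 higher and 21 lower, and DESeq2 with the library totals 108, 30 higher and 78 lower. TMM factors on the readthrough reads gave 203, 111 higher and 92 lower, and the number of readthrough reads as the total gave 216, 103 higher and 113 lower. A minimum of 100 reads left 142 calls, 29 higher and 113 lower, and no minimum 216, of which 160 lower. Leaving out 1 library at a time gave 177 to 276 calls, 49 to 67 higher and 128 to 209 lower. Summing the IM 1h libraries into 1, an alternative chosen after seeing the data, gave 155, 44 higher and 111 lower.

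The replicate numbers were also used as a replicate block, which gave 274 calls, 62 higher and 212 lower. The difference of the share was -0.685 points (p = 0.25 in an exact permutation test within blocks). That p is the lowest this test can give with so few blocks, so it does not show a weaker difference. Residuals of libraries with the same number had correlations of 0.0318, -0.0290 and 0.0178, so the numbers do not pair libraries, and the cause was not tested.

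Of the 85 called genes that the naming rule picked, 0 changed sign under the alternatives that tested them, and called genes named outside the rule were not followed. UROD went from -0.21 to 0.0946 with DESeq2 and its own size factors, 0.0847 under TMM factors and 0.0334 with the readthrough reads as the total. PTPRC, at 0.22, ranged from -0.44 to 0.65 when single libraries were left out. ZFP36L2, at 0.02, was -0.0119 with DESeq2 and the library totals and -0.0332 with the replicate block, and ranged from -0.18 to 0.28. CCND3, at 0.00, was -0.0160 with the IM 1h libraries summed, and ranged from -0.64 to 0.42.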

Other observations

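Over all genes tested, 4.19% were called higher and 14.1% lower. On chromosome 7, 93 genes were tested, of which 9 were called higher (9.68%) and 5 lower (5.38%), with a median log2 fold change of 0.19 (0.48 under TMM factors). On chromosome 19, 44 were tested, 0 called higher and 11 lower (25%), with a median of -0.66 (-0.37 under TMM factors), and without ribosomal protein and histone genes 7 of 38 lower (18.4%), with a median of -0.48 (-0.18 under TMM factors). On chromosome 17, 81 were tested, 0 called higher and 17 lower (21.0%).

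The summed level of the 11 mitochondrially encoded genes was 509, 431 and 349 RPM in CTRLim, 435, 368 and 406 RPM in IM 1h and 796, 176 and 404 RPM in IM 18h.

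Splicing intermediates removed from the libraries were 15.2%, 17.8% and 17.7% in CTRLim, 14.9%, 15.4% and 15.3% in IM 1h and 9.11%, 11.3% and 10.5% in IM 18h.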
